A study of Mus musculus with 11 samples.

Results

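The libraries compared were those of mouse muscle stem cells kept for 2 added hours at 37°C (T5) and those of cells that went through isolation alone (T3). They were chosen by their column names in the table of counts: T5 A5, A6, B5 and B6 against T3 1, 2, 3 and 4, which is 8 of the 11 libraries of the series. The remaining 3 (T0) came from muscle fixed before any dissociation and served in the same fit for the estimate of the spread. All 31999 genes with enough counts, of 48709 in the table, were described.

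The cells of all 3 groups came from pectoral, forelimb and hindlimb muscles of Tg:Pax7-nGFP mice, strain C57BL/6, in which Pax7 sequences drive a nuclear GFP that marks muscle stem cells. T3 cells were sorted by FACS and then fixed in 0.5% paraformaldehyde on ice for 30 min, and T5 cells were fixed likewise. The sources differ on the added time: the labels' protocol puts 2 h in DMEM at 37°C before the sort, on dissected muscle, and the series description puts it after the isolation. So whether the cells spent it inside the tissue or free of it is not settled, and neither age nor sex of the mice is given.

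Muscle stem cells, also called satellite cells, lie under the basal lamina of the muscle fibre and are quiescent in resting adult muscle. Pax7 marks them, Myf5 and Myod1 are the myogenic factors of their commitment, and isolation sets off their activation. Cells of any kind meet heat or misfolded protein with chaperones under the control of HSF1, and meet stress of the endoplasmic reticulum or lack of amino acids with the unfolded protein response and ATF4. NF-kB and interferon signalling drive chemokines and antiviral proteins.

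Each T3 library held between 52632553 and 72638711 counts, and each T5 library between 61837170 and 102347035. Loci of ribosomal RNA took 6.45 to 12.6% of the counts in T3 and 12 to 20.3% in T5. The T5 titles carry a letter and a numeral, so libraries of the same letter were summed for the test (T5 A and T5 B, n = 2) against 4 T3 libraries. The letters did not hold the most alike libraries: A6 and B5 differed least (biological coefficient of variation 0.0846), A5 and B6 next (0.121), and A5 and A6 most within T5 (0.186). No pair agreed within sampling noise. Nothing says that the libraries came from separate animals, so the spread that p-values measure may be technical. It is the spread within T0 (3 libraries), within T3 (4 libraries) and between the 2 T5 sums. Differences between T5 libraries of the same letter do not enter it. Levels below are CPM, the usual count scaled to a fixed library size, and unless a library is named the 4 values follow the order T3 1, 2, 3, 4 and T5 A5, A6, B5, B6.

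Before the values, 7 stretches of promoter are shown, each from a gene whose level differed, with the letters of a textbook element for its pathway in capitals. They are the 250 bases before the RefSeq start on GRCm38.p6, 5′ to 3′ on the gene's strand. The elements were searched on both strands in 32851 windows of 250 bases before to 50 after a start. Hspe1 and Chac1 were chosen after their values were seen. The others are among the genes named below, which a rule picked by fold change or p, so their choice rests on their values too.
Hspe1 (chr1:55087898-55088147, plus strand): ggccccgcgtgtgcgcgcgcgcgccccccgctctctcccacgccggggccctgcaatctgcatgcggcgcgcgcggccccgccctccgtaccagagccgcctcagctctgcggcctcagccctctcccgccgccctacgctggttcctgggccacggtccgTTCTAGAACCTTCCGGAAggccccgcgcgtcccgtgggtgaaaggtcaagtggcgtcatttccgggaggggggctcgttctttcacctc
Hspa1b (chr17:34959239-34959488, minus strand): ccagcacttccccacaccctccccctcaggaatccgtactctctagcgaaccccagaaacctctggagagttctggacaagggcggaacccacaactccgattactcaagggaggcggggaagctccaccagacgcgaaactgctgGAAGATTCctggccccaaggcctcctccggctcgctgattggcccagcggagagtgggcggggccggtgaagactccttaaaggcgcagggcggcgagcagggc
Creld2 (chr15:88819396-88819645, plus strand): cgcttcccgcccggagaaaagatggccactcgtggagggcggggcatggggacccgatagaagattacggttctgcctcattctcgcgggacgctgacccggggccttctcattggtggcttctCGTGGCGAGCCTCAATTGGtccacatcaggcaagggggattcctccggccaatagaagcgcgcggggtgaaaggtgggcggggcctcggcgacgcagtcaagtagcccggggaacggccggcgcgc
Chac1 (chr2:119350992-119351241, plus strand): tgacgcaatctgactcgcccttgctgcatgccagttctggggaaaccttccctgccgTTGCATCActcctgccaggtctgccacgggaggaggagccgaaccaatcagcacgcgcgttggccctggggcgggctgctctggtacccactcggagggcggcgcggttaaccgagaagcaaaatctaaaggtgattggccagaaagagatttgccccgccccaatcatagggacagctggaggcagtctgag
Top2a (chr11:99024190-99024439, minus strand): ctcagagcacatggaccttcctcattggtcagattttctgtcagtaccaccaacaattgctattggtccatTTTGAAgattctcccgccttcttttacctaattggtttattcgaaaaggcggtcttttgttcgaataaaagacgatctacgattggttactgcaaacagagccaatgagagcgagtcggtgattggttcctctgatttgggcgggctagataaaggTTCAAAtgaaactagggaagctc
Gbp2 (chr3:142620413-142620662, plus strand): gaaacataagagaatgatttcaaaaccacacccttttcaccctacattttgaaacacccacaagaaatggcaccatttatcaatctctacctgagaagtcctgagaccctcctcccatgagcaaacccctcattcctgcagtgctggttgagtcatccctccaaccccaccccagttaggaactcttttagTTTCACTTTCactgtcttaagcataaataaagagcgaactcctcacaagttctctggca
Cxcl1 (chr5:90890995-90891244, plus strand): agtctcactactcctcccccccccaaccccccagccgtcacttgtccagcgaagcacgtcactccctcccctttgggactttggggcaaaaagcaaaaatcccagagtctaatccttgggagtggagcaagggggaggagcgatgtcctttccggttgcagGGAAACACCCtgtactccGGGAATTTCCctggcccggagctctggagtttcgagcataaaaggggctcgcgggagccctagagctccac
The capitals of Hspe1 are the heat shock element (TTC, GAA and TTC, each 2 bases apart), once on each strand and overlapping, and those of Hspa1b its core GAANNTTC, which the longer element contains. Those of Creld2 are the endoplasmic reticulum stress element (CCAAT, then 9 bases, then CCACG) on the other strand, and those of Chac1 the ATF4 element TTGCATCA. Those of Top2a are the cell cycle homology region TTTGAA, once on each strand (TTCAAA is the other strand). Those of Gbp2 are the interferon element (TTTC, then 2 bases, then TTTC). Those of Cxcl1 are the kappaB element (GGG, then 2 bases, then TTTCC), once on each strand (GGAAACACCC is the other strand).

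The elements were found in the windows of the matching gene lists and, at other rates, in all windows. The full heat shock element stood in 5 of 29 windows of the heat shock genes against 0.603% of all windows, and its core in 13 of 29 against 7.86%. By gene it stood in 4 of 21 genes with a window, and its core in 12. Windows are not separate sites, since Hspd1 and Hspe1 share a stretch read on opposite strands. Likewise the windows of Hsph1 hold the same bases, and Hspa1a and Hspa1b are near-identical copies. The endoplasmic reticulum stress element stood in 5 of 34 windows of the ATF4 and unfolded protein response genes (Creld2, Dnajc3, Hsp90b1, Hspa5 and Pdia6) against 0.119%, and TTGCATCA in 5 of 34 (Chac1, Herpud1, Nupr1, Slc7a11 and Vldlr) against 0.895%. TTTGAA stood in 11 of 16 windows of the mitosis genes against 17.9%. The interferon element stood in 11 of 21 windows of the interferon genes against 3.44%, and the kappaB element in 11 of 32 windows of the NF-kB genes against 1.63%. The AP-1 element TGACTCA stood in 1 of 31 windows of the immediate early genes against 5.2%. A match describes the letters, not a bound site. The lists group genes by pathway whether or not they changed, so these shares do not bear on T5. Of list genes with a match, those called were 3 of 4 for the full heat shock element and 7 of 12 for its core. They were 4 of 5 for the endoplasmic reticulum stress element, 2 of 5 for TTGCATCA and 5 of 11 for TTTGAA. For the interferon, kappaB and AP-1 elements they were 2 of 11, 3 of 9 and 0 of 1. Of the genes called higher 232 of 411 had a window, 288 windows in all, and the genes called lower had 179 windows. Shares in brackets are those of the windows of genes called higher, genes called lower and all genes tested. The full heat shock element stood in 4 and 1 windows (1.39, 0.559 and 0.527%) and its core in 26 and 11 (9.03, 6.1 and 6.8%). The endoplasmic reticulum stress element stood in 5 and 0 (1.74, 0 and 0.138%), and TTGCATCA in 6 and 1 (2.08, 0.559 and 0.789%). TTTGAA stood in 53 and 20 (18.4, 11.2 and 14.9%). The interferon element stood in 7 and 11 (2.43, 6.1 and 3.25%), and TGACTCA in 9 and 12 (3.1, 6.7 and 4.65%). The kappaB element stood in 3.82% of the windows of genes called higher and in 4.47% of those of genes called lower (11 and 8 windows), both above its share of all windows.

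With the 2 added hours several chaperone, secretory stress and cell division genes rose, and several interferon-induced genes, chemokines and genes of quiescent muscle stem cells fell. A gene was called where edgeR's quasi-likelihood F test gave an adjusted p (Benjamini-Hochberg over all genes tested) under 0.05. Of 31999 genes 411 were called higher in T5 (1.28%) and 284 lower (0.888%), and 350 and 259 of these differed by at least 2-fold. In 381 of the 411 each T5 library lay above each T3 library, and in 274 of the 284 each lay below. Over all genes the libraries were apart in that way in 8.15% upward and 11.6% downward. Over all genes tested the median was 0.05 on the log2 scale. The counts moved with the fit: without T0 they were 1348 and 1646, without T0 1 796 and 643, without T0 3 922 and 1581, without T3 4 271 and 186, without T5 A 165 and 59, and without T5 B 143 and 41. Leaving out a letter leaves 1 T5 sum, which is then taken to vary like the other groups.

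**Figure D1:**
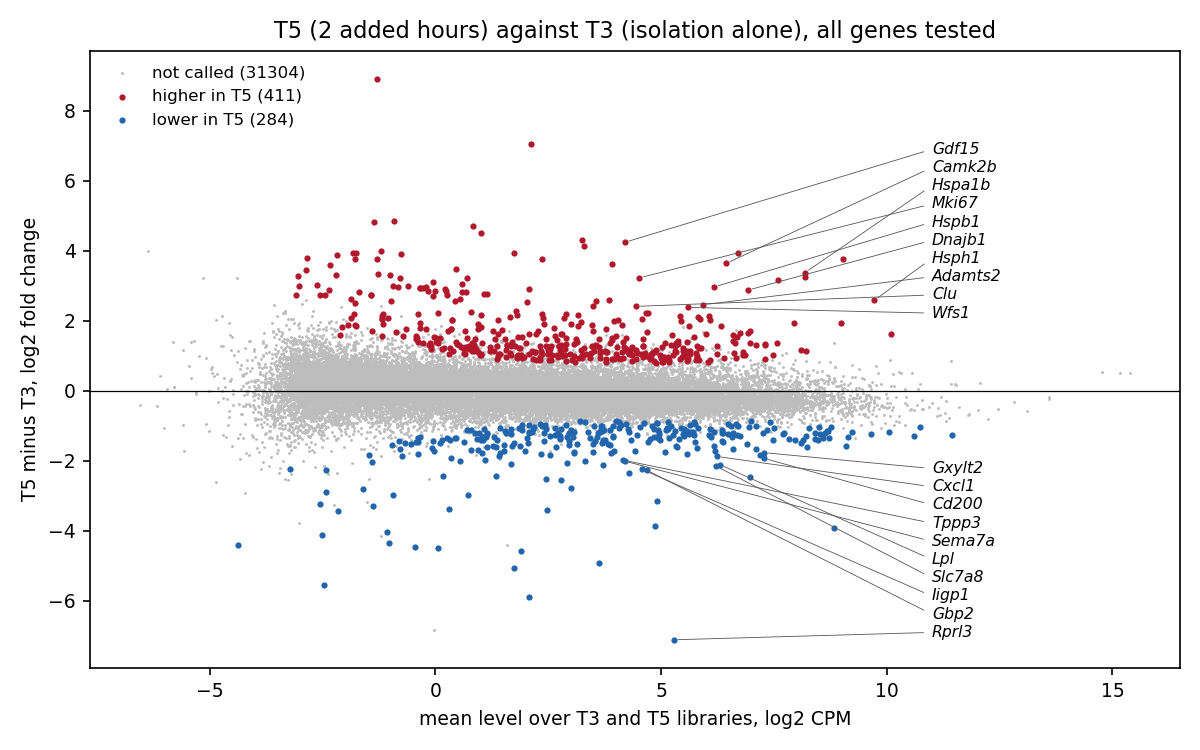
Each point is 1 of 31999 genes, with its mean level over the T3 and T5 libraries (log2 CPM) on the x axis and the log2 fold change of T5 minus T3 on the y axis. The 411 genes called higher (red) and the 284 called lower (blue) stand apart from the genes not called (grey), and the 10 highest and 10 lowest genes of the naming rule are labelled.

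Several heat shock genes rose. Of 26 heat shock and cytosolic chaperone genes 11 were called higher, against 1.28% of all genes, and 0 lower, and their median log2 fold change was 0.75. Hspa1b (ENSMUSG00000090877.3, chromosome 17, 34956436 to 34959238, minus strand), the inducible HSP70, stood at 36.8, 21, 34.7 and 109 CPM in T3 and at 855, 334, 335 and 610.1 CPM in T5. Every T5 library was above every T3 library, T3 4 was the highest of T3, and the log2 fold change was 3.38 ± 0.42 (adjusted p = 2.41e-05). Its near-identical copy Hspa1a shares reads with it, so both are uncertain singly. Dnajb1 (ENSMUSG00000005483.10, chromosome 8, 83608193 to 83612653, plus strand), the HSP40 co-chaperone of HSP70, stood at 20.3, 28, 32.1 and 35.4 CPM in T3 and at 384, 121, 121 and 237 in T5 (log2 fold change 2.88 ± 0.24, adjusted p = 1.53e-07). Hspb1, a small heat shock protein, stood at 11.8, 9.46, 17 and 26.6 CPM and then at 188, 96, 93.5 and 138 (log2 fold change 2.97 ± 0.30, adjusted p = 2.15e-06). Hsph1, the HSP110 exchange factor, stood at 185, 249, 170.4 and 351 CPM and then at 2251, 938, 1024 and 1605 (log2 fold change 2.59 ± 0.30, adjusted p = 1.26e-05). Hspa4l, of the same HSP110 family, lay at 23.1 to 33.7 CPM in T3 and at 65.4 to 176 CPM in T5 (adjusted p = 4.82e-06).

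In all 5 genes A5 was the highest T5 library, B6 the next, and A6 and B5 lay close together below them. The other members called, Hspb8, Hspe1, Hspd1, Hsp90aa1 and Cryab besides Hspa1a, had log2 fold changes of 1.08 to 3.25, and Hspe1 and Hspd1 overlap each other. Members with no call lay between −0.53 for Hsf1, the gene of the heat shock factor HSF1, and 0.80 for Ahsa1, a co-chaperone of HSP90. The 4 chaperonin subunits of the list (Cct2, Cct3, Cct5 and Tcp1) lay between −0.26 and −0.04. The number called was 9 without T5 A and 9 without T5 B, and 9 with A6 and B5 alone as T5. T0 means were 1.26 CPM for Hspa1b, 3.0 for Hspb1, 7.22 for Dnajb1 and 44.9 for Hsph1, so T3 stood between T0 and T5 in each of these 4.

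Several genes of the secretory pathway and of ATF4 rose too. Of 33 genes of the ATF4 and unfolded protein response 15 were called higher, against 1.28% of all genes, and 0 lower. Their median log2 fold change was 0.83. Creld2 (ENSMUSG00000023272.3, chromosome 15, 88819646 to 88826683, plus strand), an endoplasmic reticulum protein induced by unfolded protein, stood at 5.6, 6.45, 6.31 and 6.54 CPM in T3 and at 23.7, 22.8, 29.7 and 22.3 in T5. The groups did not overlap and the T5 libraries lay close together (log2 fold change 1.98 ± 0.21, adjusted p = 3.73e-06). Pdia4, a disulfide isomerase, stood at 15.3, 23.4, 27.2 and 20.4 CPM and then at 72.8, 69.3, 99.2 and 67.4 (log2 fold change 1.84 ± 0.23, adjusted p = 2.70e-05). Pdia6, of the same family, lay at 41.2 to 67.4 CPM in T3 and at 148 to 189 in T5 (log2 fold change 1.64 ± 0.22, adjusted p = 8.27e-05). Hsp90b1, the HSP90 of the endoplasmic reticulum, lay at 167 to 262 CPM and then at 670.1 to 956 (adjusted p = 1.40e-05) and is uncertain.

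A gene is called uncertain here where an overlapping gene on either strand has at least 0.1 of its level, since nothing says that the counting used strand. Chac1, an ATF4 target that degrades glutathione, stood at 14.3, 4.2, 6.71 and 11.8 CPM in T3 and at 52.2, 32.5, 45.9 and 43.3 in T5 (log2 fold change 2.23 ± 0.32, adjusted p = 1.47e-04). The remaining calls of the list were Hspa5 (the chaperone BiP), Trib3, Asns, Sesn2, Sdf2l1, Herpud1, Psat1, Sel1l, Mthfd2 and Ddit3 (CHOP), at 0.89 to 2.07 on the log2 scale. Herpud1, Sesn2, Mthfd2 and Ddit3 overlap another gene and are uncertain. The number called was 10 without T5 A, 9 without T5 B and 6 without genes that overlap another. Creld2, Pdia4 and Pdia6 were highest in B5, while Hsp90b1, Chac1 and Sesn2 were highest in A5, as were the heat shock genes above. The median level of the list was also highest in A5. In 24 of 33 members all T5 libraries lay above all T3 libraries, against 8.15% of all genes. T0 means were 6.96 CPM for Creld2, 43.3 for Pdia4 and 0.666 for Chac1, so Creld2 lay near its T0 level in T3, Pdia4 below it, and Chac1 between T0 and T5.

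Gdf15 (ENSMUSG00000038508.7, chromosome 8, 70629393 to 70632456, minus strand), a stress-induced secreted factor, had the highest fold change among the 10 highest genes of the naming rule, which are limited to abundant genes. It stood at 1.25, 2.08, 2.38 and 1.57 CPM in T3 and at 45.7, 22.8, 29.4 and 42.5 in T5 (log2 fold change 4.25 ± 0.25, adjusted p = 6.57e-10), with a T0 mean of 0.165. Wfs1, a membrane protein of the endoplasmic reticulum, stood at 15.4, 15.6, 16.1 and 14.5 CPM and then at 77.3, 77.7, 88.2 and 80.6 (log2 fold change 2.38 ± 0.22, adjusted p = 6.03e-07). Both had T5 libraries wholly above T3, and the T5 values of Wfs1 differed little from each other.

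Of 21 amino acid and metabolite transporters 3 were called higher and 0 lower, against 1.28 and 0.888% of all genes. In 7 all T5 libraries lay above all T3 libraries and in 4 all lay below, against 8.15 and 11.6% of all genes. Slc7a8, an amino acid transporter outside this list, was called lower and is given below. Slc1a4, a neutral amino acid transporter, lay at 7.98 to 12 CPM in T3 and at 23.5 to 27.2 in T5 (log2 fold change 1.26 ± 0.23, adjusted p = 0.00271). Slc6a9, the glycine transporter GLYT1, had a log2 fold change of 1.17 ± 0.24 (adjusted p = 0.00795) and is uncertain. Slc38a4 had 0.99 ± 0.23 (adjusted p = 0.0207). Mthfd2, a mitochondrial folate enzyme, was the only call among 24 nucleotide and one-carbon genes at 0.89 ± 0.22 (adjusted p = 0.0267), whose median was −0.37. Sesn2, which restrains mTORC1, had 1.21 ± 0.21 (adjusted p = 0.00178). Without T5 B the adjusted p was 0.0785 for Slc1a4, 0.102 for Sesn2, 0.231 for Slc38a4, 0.243 for Slc6a9 and 0.482 for Mthfd2. Without T5 A it was 0.0545 for Slc1a4, 0.0591 for Slc6a9, 0.355 for Mthfd2 and 0.406 for Slc38a4. Slc38a4 also missed the threshold without T3 2 (0.0803) and T3 4 (0.0913), and Mthfd2 without T3 1, 2, 3 or 4 (0.0563 to 0.0915).

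Several genes of mitosis rose, while genes of cell cycle entry and S phase mostly did not pass the test. Of 20 mitosis genes 9 were called higher, against 1.28% of all genes, and 0 lower, with a median log2 fold change of 0.96. Mki67 (ENSMUSG00000031004.8, chromosome 7, 135689784 to 135716361, minus strand), the proliferation antigen Ki-67, stood at 3.65, 4.55, 6.11 and 3.24 CPM in T3 and at 63.6, 21.5, 30.8 and 50.3 in T5. All T5 libraries were above all T3 libraries, A5 highest and A6 lowest, and the log2 fold change was 3.23 ± 0.26 (adjusted p = 9.12e-08). Top2a, the topoisomerase of dividing cells, stood at 3.25, 3.36, 3.48 and 2.84 CPM and then at 21.1, 9.29, 11.6 and 16.9 (log2 fold change 2.17 ± 0.26, adjusted p = 1.56e-05). Cenpf, a kinetochore protein, stood at 2.79, 2.9, 3.12 and 2.21 CPM and then at 16.6, 7.78, 8.8 and 13.8 (log2 fold change 2.07 ± 0.23, adjusted p = 7.08e-06). Tpx2, a spindle assembly factor, lay at 2.8 to 3.73 CPM and then at 6.1 to 9.82 (adjusted p = 0.00271). The other calls were Cenpe, Cdk1, Kif11, Aurkb and Birc5, at 1.01 to 1.38 on the log2 scale. T0 means were 6.8 CPM for Mki67, 3.36 for Top2a and 4.13 for Cenpf, so none of these 3 had a higher mean in T3 than in T0.

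Of 28 genes of cell cycle entry and S phase 2 were called higher, and the median was 0.06, close to that of all genes. Ccnd1, the cyclin of early G1, lay at 5.7 to 10.1 CPM in T3 and at 17.2 to 27.4 in T5 (log2 fold change 1.36 ± 0.23, adjusted p = 0.00136) and is uncertain. Rrm2, a subunit of ribonucleotide reductase, lay at 0.762 to 1.53 CPM and then at 1.92 to 3.52 (log2 fold change 1.11 ± 0.28, adjusted p = 0.0354). Without T5 A the adjusted p was 0.0509 for Ccnd1, 0.0696 for Tpx2 and 0.441 for Rrm2, and without T5 B it was 0.0855 for Tpx2 and 0.329 for Rrm2. Rrm2 also missed the threshold without T3 1 (0.114), T3 2 (0.0632), T3 4 (0.0946), T5 A5 (0.162) or T5 B6 (0.0772). The number of mitosis genes called was 3 without T5 A, 3 without T5 B, 6 without T3 2 and 6 with A6 and B5 alone as T5.

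Replication-dependent histone genes lay low, and a part of them rose. All 44 measured Hist1, Hist2 and Hist3 genes had a median log2 fold change of 1.11, with 14 called higher, against 1.28% of all genes, and 0 lower. This family was grouped after its values were seen, and of the 16 histone genes of the list 2 were called. Hist1h2bg stood at 0.0363, 0, 0.0464 and 0.0575 CPM in T3 and at 1.55, 0.65, 0.769 and 1.15 in T5 (adjusted p = 2.13e-06), with a T0 mean of 0.775. Hist1h2ae stood at 0.0363, 0.0309, 0.0309 and 0.0192 CPM and then at 0.412, 0.0449, 0.148 and 0.217 (adjusted p = 0.0189). Its adjusted p was 0.527 without T5 A, 0.264 without T5 B, 0.0566 without T3 2 and 0.0587 without T3 4. At so few counts in T3 no fold is given. Among more abundant members, Hist1h2be lay at 4.55 to 5.68 CPM in T3 and at 4.59 to 5.45 in T5 and Hist1h1e at 5.34 to 9.13 and then 5.46 to 12.7, with no call (adjusted p = 0.906 and 0.585). Such genes lie among near-identical copies and are uncertain, and A5 was highest for Hist1h2bg and Hist1h2ae.

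Several interferon-induced genes fell. Of 22 interferon response genes 6 were called lower, against 0.888% of all genes, and 0 higher, with a median log2 fold change of −1.05, and in 17 of them every T5 library lay below every T3 library, against 11.6% of all genes. Gbp2 (ENSMUSG00000028270.12, chromosome 3, 142620602 to 142638008, plus strand), a guanylate-binding protein of antimicrobial defence, stood at 30.5, 44.5, 53.1 and 42 CPM in T3 and at 9.84, 9.12, 7.82 and 9.03 in T5. The T5 libraries lay close together and below all of T3, and the gene fell by 2.27 ± 0.26 on the log2 scale (adjusted p = 1.18e-05). Iigp1, an immunity-related GTPase outside the list, stood at 32.9, 29.7, 52.7 and 41.2 CPM and then at 10.6, 7.86, 6.99 and 8.15, and fell by 2.24 ± 0.44 (adjusted p = 0.00499). Ifit1, which binds viral RNA, stood at 6.02, 6.82, 18.5 and 6.04 CPM and then at 1.42, 1.5, 1.84 and 1.77, and fell by 2.53 ± 0.47 (adjusted p = 0.00323). T3 3 stood far above the other T3 libraries for Ifit1.

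Parp14, a mono-ADP-ribosyltransferase, fell by 1.41 ± 0.27 (adjusted p = 0.00354), and Irf9, the DNA-binding part of the interferon-activated complex ISGF3, by 1.02 ± 0.25 (adjusted p = 0.029, uncertain). Tap1 and Ifi35 were the other calls and are uncertain. Of 19 guanylate-binding proteins and immunity-related GTPases 8 were called lower, against 0.888% of all genes, and 0 higher (median −1.27). This family was grouped after its values were seen. Of 39 histocompatibility genes and neighbours on chromosome 17, also grouped after their values were seen, 8 were called higher and 0 lower (median 0.40). In 11 of them each T5 library lay above each T3 library, and in 2 each lay below. The class I gene H2-K1 was among these 2, at 76.6 to 131 CPM in T3 and 53.4 to 57.2 in T5. It had no call (log2 fold change −0.86, adjusted p = 0.101). T0 means were 13.1 CPM for Gbp2, 4.42 for Iigp1 and 2.71 for Ifit1, so each was highest in T3. Without T5 B the adjusted p was 0.0712 for Iigp1, 0.198 for Parp14 and 0.606 for Irf9, and without T5 A it was 0.0515 for Parp14 and 0.323 for Irf9. Irf9 also missed the threshold without T3 2 (0.0681), T3 3 (0.0995) or T5 A6 (0.0573). The number of interferon response genes called was 3 without T3 3, 4 without T3 2, 2 without T5 A, 2 without T5 B and 3 with upper quartile scaling. With upper quartile scaling the adjusted p was 0.0603 for Irf9, 0.0673 for Ifit1 and 0.0899 for Iigp1. T3 3 also had the highest summed level of neutrophil markers (26.8 CPM, against 6.41 to 14.3 in the other T3 libraries and 10.2 to 15.3 in T5) and of fibroblast markers (837 CPM, against 493 to 647 and 557 to 791). The part of those cells in the interferon result was not tested.

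A few chemokines fell, and most NF-kB and immediate early genes did not pass the test. Of 32 NF-kB and cytokine genes 4 were called lower, against 0.888% of all genes, and 0 higher (median −0.45). Cxcl1 (ENSMUSG00000029380.11, chromosome 5, 90891241 to 90893115, plus strand), a neutrophil attractant, stood at 93.9, 135, 131 and 114 CPM in T3 and at 40.5, 35.4, 24.6 and 30.9 in T5, with no overlap, and fell by 1.88 ± 0.25 on the log2 scale (adjusted p = 6.84e-05). Cxcl2, of the same group, stood at 6.93, 19.9, 17.4 and 11.5 CPM and then at 1.64, 2.97, 1.7 and 2.05, and fell by 2.77 ± 0.38 (adjusted p = 9.53e-05). Cxcl5 lay at 1.43 to 2.52 CPM in T3 and at 0.175 to 0.628 in T5 (fell by 2.45 ± 0.41, adjusted p = 0.00101). Tnfaip3, the feedback inhibitor A20 of NF-kB, lay at 55.3 to 109 CPM and then at 22.1 to 35.2 (fell by 1.62 ± 0.29, adjusted p = 0.00194). T5 remained above the T0 means of 0.685 CPM for Cxcl1 and 0.090 CPM for Cxcl2 in every library. Of 13 CXC chemokines, a family grouped after its values were seen, 4 were called lower (the remaining one was Cxcl3) and 0 higher, with a median of −0.29. Of this family Cxcl17 alone had each T5 library above each T3 library, with no call (adjusted p = 0.126).

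Of 31 immediate early and AP-1 genes 1 was called lower and 0 higher (median −0.18). It was Fosb, a subunit of AP-1, at 348, 459.6, 599.6 and 405 CPM in T3 and 202, 128, 131 and 144 in T5 (fell by 1.59 ± 0.30, adjusted p = 0.00304). Fos itself stood at 117, 202, 281 and 155 CPM and then at 219.5, 104, 114 and 145, and the groups overlapped (log2 fold change −0.38 ± 0.28, adjusted p = 0.603). Without T5 B the adjusted p was 0.0741 for Cxcl5, 0.102 for Tnfaip3 and 0.136 for Fosb. The number of NF-kB genes called was 2 without T5 B. Among 18 JAK-STAT and SOCS genes none was called, with the most abundant, Stat3, at 588 to 749 CPM in T3 and 399.7 to 616 in T5 (adjusted p = 0.457).

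**Figure D2:**
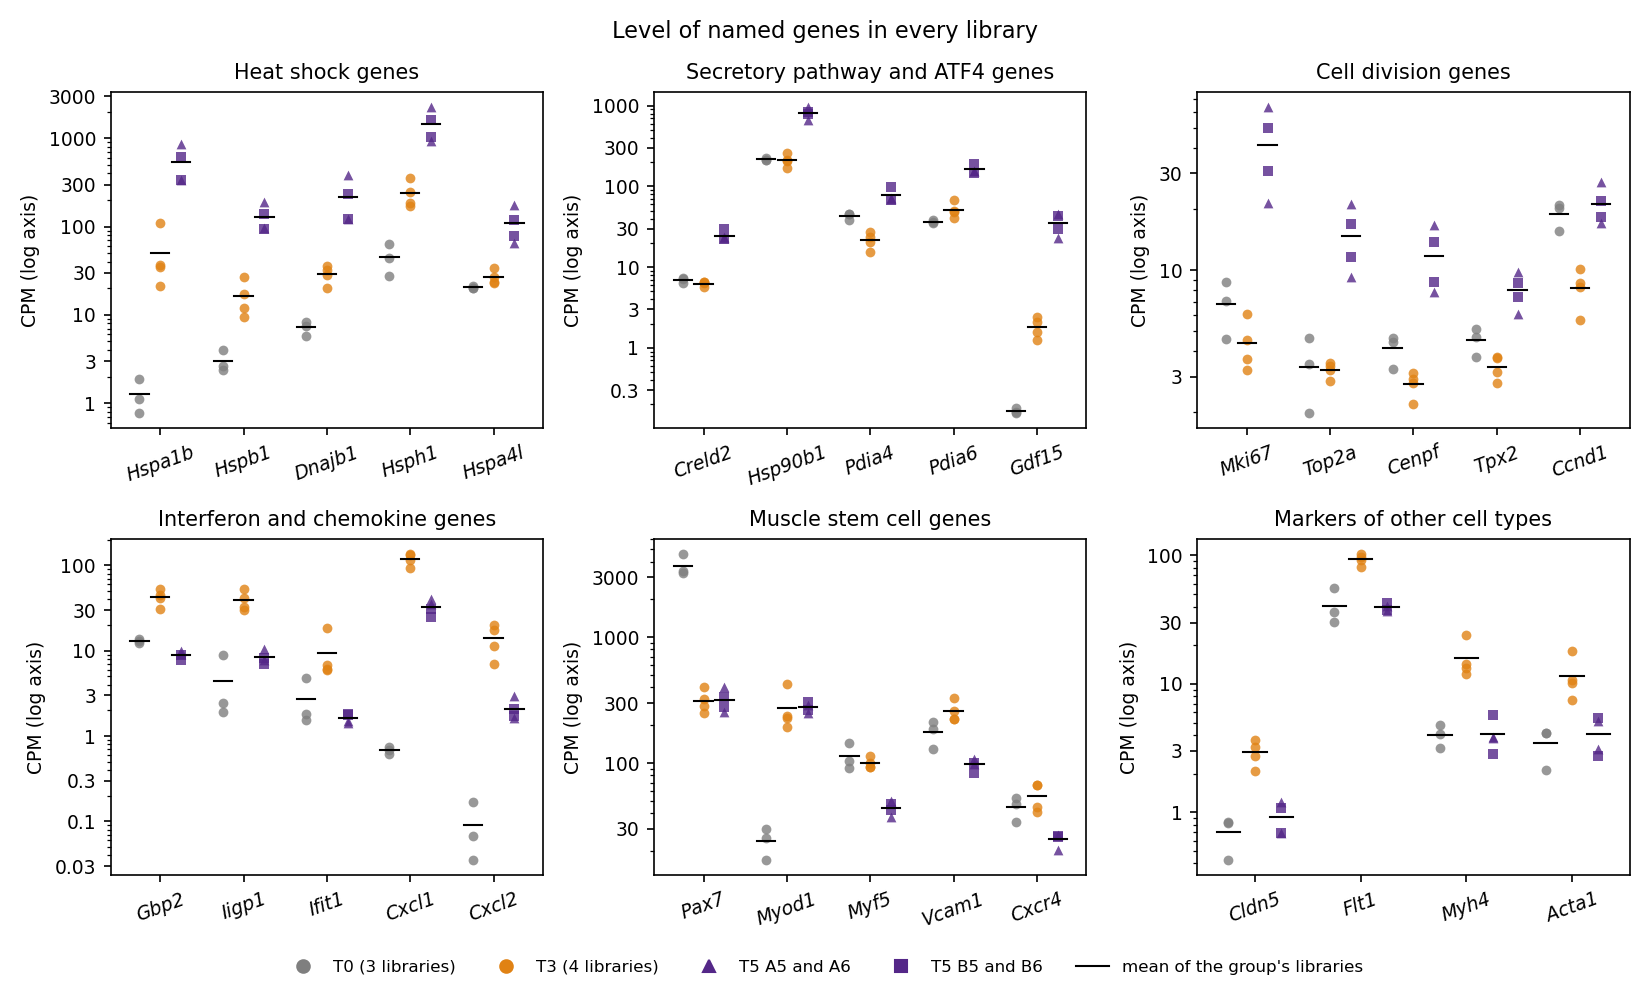
Level in CPM (log axis) of 29 genes in every library of T0 (grey), T3 (orange) and T5 (purple, triangles for A5 and A6, squares for B5 and B6), with a bar at the mean of each group's libraries. The heat shock, secretory and cell division genes drawn stand above T3 in each T5 library, the interferon and chemokine genes drawn below, and Pax7 and Myod1 overlap.

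Genes of quiescent muscle stem cells moved in part. Pax7 (ENSMUSG00000028736.13, chromosome 4, 139737062 to 139833528, minus strand) stood at 285, 249.8, 401 and 321 CPM in T3 and at 399, 257, 279 and 338 in T5, and the groups overlapped (log2 fold change 0.00 ± 0.26, adjusted p = 0.997). Myod1 stood at 229, 428, 238 and 193 CPM and then at 249.6, 289, 304 and 264, also with overlap (log2 fold change 0.01 ± 0.29, adjusted p = 0.987). A p that misses the threshold does not show that the levels were the same, and the SE gives the room left for a difference. Myf5 (ENSMUSG00000000435.1, chromosome 10, 107482908 to 107486134, minus strand) stood at 93, 99.5, 114 and 93.2 CPM and then at 49.7, 37.3, 47.1 and 42.6, with all of T5 below all of T3, and fell by 1.18 ± 0.24 on the log2 scale (adjusted p = 0.00736). T0 means were 3719 CPM for Pax7, 24.1 for Myod1 and 113 for Myf5.

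Of 33 genes of satellite cell quiescence 6 were called lower, against 0.888% of all genes, and 0 higher (median −0.31). Cav1, the coat protein of caveolae, lay at 493 to 565 CPM in T3 and at 174 to 211 in T5 (fell by 1.41 ± 0.25, adjusted p = 0.00168). Vcam1, an adhesion molecule often used to sort these cells, lay at 223 to 329 CPM and then at 83.6 to 108 (fell by 1.42 ± 0.26, adjusted p = 0.00327). Cxcr4, the receptor of the chemokine CXCL12, stood at 40.6, 66.6, 67.3 and 44.7 CPM and then at 26.7, 20.5, 25.9 and 26.3 (fell by 1.15 ± 0.27, adjusted p = 0.019). Cd34, a sialomucin, fell by 1.32 ± 0.28 (adjusted p = 0.0107), and Chrdl2, a secreted BMP antagonist, by 1.19 ± 0.31 (adjusted p = 0.0464). Fgfr1, a receptor of fibroblast growth factors, was the remaining call at −1.27 on the log2 scale. Cav1, Vcam1, Cd34 and Fgfr1 overlap another gene and are uncertain. Cav1 and Fgfr1 had lower T0 means (176 and 804 CPM) than any of their T3 values, and Cd34 and Chrdl2 higher T0 means (127 and 640.0 CPM) than their T3 means. Calcr and Spry1, at −0.36 and −0.95, had no call (adjusted p = 0.581 and 0.0898, the second uncertain).

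Among 28 myogenic regulators 2 were called higher and 1, Myf5, lower. In 5 all T5 libraries lay above all T3 libraries and in 5 all lay below, against 8.15 and 11.6% of all genes. Myog, the factor of terminal differentiation, stood at 0.544, 0.864, 0.464 and 0.115 CPM in T3 and at 3.07, 1.31, 1.15 and 2.78 in T5 (log2 fold change 2.02 ± 0.38, adjusted p = 0.00373), a low level in all libraries, with A5 and B6 the highest. Six4, a homeodomain factor, lay at 6.38 to 9.48 CPM and then at 12.9 to 22.7 (log2 fold change 1.07 ± 0.22, adjusted p = 0.00884). Of 24 Notch pathway genes 1 rose and 1 fell. Hes1, a target of Notch, stood at 2.76, 3.07, 4.14 and 3.95 CPM and then at 12, 6.12, 6.57 and 7.68 (log2 fold change 1.21 ± 0.24, adjusted p = 0.00634). Notch3, a receptor, lay at 128 to 302 CPM and then at 84.6 to 106 (fell by 1.20 ± 0.31, adjusted p = 0.0383, uncertain). T0 means were 18.6 CPM for Hes1, 759 for Notch3 and 1.9 for Myog.

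The markers of the muscle stem cell itself were abundant in all libraries. Their summed level over 10 genes was 2963 to 3589.8 CPM in T3 and 2099 to 2365 CPM in T5, 3 were called lower and 0 higher, and 0 were called without T5 A or without T5 B. Most calls among the stem cell genes missed the threshold with 1 letter of T5 alone. Without T5 A the adjusted p ran from 0.094 for Vcam1 to 0.462 for Chrdl2 over Vcam1, Cav1, Cd34, Six4, Hes1, Myf5, Notch3, Cxcr4 and Chrdl2. Without T5 B it ran from 0.0922 for Cav1 to 0.439 for Notch3 over the same genes other than Hes1, and the quiescence list had 0 calls in both cases. Cxcr4 also missed the threshold without T3 2 (0.0616) or T3 3 (0.0549). Chrdl2 did so without T0 2 (0.0558), T3 1 (0.0872), T3 2 (0.0657), T3 4 (0.146) or T5 A6 (0.0588). Notch3 did so without T3 1 (0.0723), T3 3 (0.109), T3 4 (0.0854) or T5 A6 (0.0526). With A6 and B5 alone as T5 it was 0.0636 for Hes1 and 0.119 for Myog.

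Outside these lists, the naming rule gave 3 further genes that rose and 7 that fell. Camk2b (ENSMUSG00000057897.14, chromosome 11, 5969644 to 6066362, minus strand), a subunit of the calcium and calmodulin dependent kinase II, stood at 13.2, 10.9, 14.3 and 12.6 CPM in T3 and at 207, 122, 121 and 198 in T5 (log2 fold change 3.64 ± 0.24, adjusted p = 1.97e-09). Adamts2, which trims procollagen, stood at 19.3, 16.9, 22.1 and 16.2 CPM and then at 109.5, 90.4, 106 and 108 (log2 fold change 2.46 ± 0.25, adjusted p = 2.13e-06). Clu, the secreted chaperone clusterin, stood at 6.87, 6.26, 7.44 and 6.77 CPM and then at 57.2, 24, 23.6 and 43 (log2 fold change 2.41 ± 0.22, adjusted p = 5.73e-07). In Camk2b and Clu A5 and B6 were again the higher T5 libraries, and in Adamts2 A6 was the lowest. Their T0 means were 7.53, 13.8 and 5.95 CPM.

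Of those that fell, Slc7a8, the amino acid transporter LAT2, stood at 96.2, 177, 72.9 and 136 CPM in T3 and at 20.9, 31.6, 33.8 and 23.6 in T5 (fell by 2.14 ± 0.44, adjusted p = 0.0075). Lpl, lipoprotein lipase, stood at 131, 101, 98 and 185 CPM and then at 26, 33.1, 39.3 and 21 (fell by 2.11 ± 0.34, adjusted p = 8.27e-04). Both were higher in T0, at means of 421 and 358 CPM. Sema7a, a membrane-anchored semaphorin, lay at 25.3 to 32.8 CPM in T3 and at 6.61 to 7.9 in T5 (fell by 2.01 ± 0.26, adjusted p = 6.08e-05), with a T0 mean of 4.13. Tppp3, a tubulin-binding protein, lay at 21.7 to 34.1 CPM and then at 6.05 to 8.4 (fell by 1.98 ± 0.29, adjusted p = 2.39e-04). Cd200, a membrane glycoprotein that restrains myeloid cells, lay at 185 to 326 CPM and then at 57.4 to 81.7 (fell by 1.93 ± 0.34, adjusted p = 0.00167). Gxylt2, a xylosyltransferase that modifies Notch, lay at 191 to 263 CPM and then at 63.6 to 83.9 (fell by 1.77 ± 0.28, adjusted p = 5.35e-04). Without T5 A the adjusted p was 0.0547 for Cd200 and 0.0702 for Slc7a8, and without T5 B 0.0517 for Slc7a8.

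Rprl3 (ENSMUSG00000088025.1, chromosome 8, 3803069 to 3803358, minus strand), annotated as a ribozyme and a near copy of the RNA of RNase P, stood at 74.7, 84.9, 51.7 and 98.1 CPM in T3, 200.2, 101 and 35.7 CPM in T0 and 0.221, 0.0897, 0.0405 and 2.17 CPM in T5 (fell by 7.11 ± 0.72, adjusted p = 2.13e-06). Reads can be split between such copies, so it is uncertain, and T5 B6 stood above the other T5 libraries. Whether such loci were counted alike in all libraries is not given in the sources used here, so the difference may not be one of expression.

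In the signalling, matrix and cytoskeleton lists single genes moved. Smad3, the effector of TGF-beta, lay at 747 to 939.5 CPM in T3 and at 263 to 309 in T5 (fell by 1.57 ± 0.29, adjusted p = 0.00259), and Bmp4, a ligand of the family, fell by 1.02 ± 0.26 (adjusted p = 0.0428). They were the calls among 22 TGF-beta and BMP genes. Lmna, which encodes the A-type lamins, lay at 631 to 976 CPM and then at 303 to 366 (fell by 1.31 ± 0.26, adjusted p = 0.00568). In its list of 26 actin, SRF and YAP genes the LIM protein gene Ajuba rose by 1.22 ± 0.24 (adjusted p = 0.00481) and Amotl2, a YAP-binding angiomotin, by 0.85 ± 0.23 (adjusted p = 0.0485). Of 21 matrix proteases and inhibitors Adamts20 rose by 1.01 ± 0.22 (adjusted p = 0.0112), while Adamts1 fell by 1.14 ± 0.27 (adjusted p = 0.0231) and Adamts4 by 0.95 ± 0.24 (adjusted p = 0.0385, uncertain). Mbnl1, a splicing factor, lay at 276 to 555 CPM and then at 132 to 185 (fell by 1.40 ± 0.30, adjusted p = 0.011) and was the call among 29 splicing genes. Tet2, which oxidises methylcytosine, lay at 508 to 708 CPM and then at 211 to 279 (fell by 1.33 ± 0.27, adjusted p = 0.00643) and was the call among 28 chromatin regulators.

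Of 22 hypoxia genes 3 rose: Adm, a vasodilator peptide (log2 fold change 1.30 ± 0.28, adjusted p = 0.0119), Loxl2, a lysyl oxidase (0.94 ± 0.23, adjusted p = 0.0291), and Bhlhe40, a repressor that is also the call among 19 clock genes (0.98 ± 0.24, adjusted p = 0.0331). Of 19 FoxO and starvation genes 2 rose, Fbxo32, a ubiquitin ligase of muscle atrophy (1.28 ± 0.30, adjusted p = 0.023), and Txnip, an inhibitor of thioredoxin (1.36 ± 0.32, adjusted p = 0.0246). Dusp8, a MAP kinase phosphatase, was the call among 25 MAPK feedback genes (1.51 ± 0.28, adjusted p = 0.00311). Of 20 p53 targets Phlda3, an inhibitor of AKT, rose by 1.14 ± 0.30 (adjusted p = 0.0439) besides Sesn2. Adm, Bhlhe40, Fbxo32, Txnip and Dusp8 overlap another gene and are uncertain.

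With 1 letter of T5 alone the log2 fold changes moved little. Over all named calls that then missed the threshold, they were 78.1 to 111% of their value with both letters without T5 A. Without T5 B they were 78.2 to 117%. Each letter joins 1 library of each alike pair (A5 with B6, A6 with B5), so these fits cannot show differences between the pairs. With A6 and B5 alone as T5, Dusp8, Bhlhe40, Txnip, Phlda3 and Amotl2 missed the threshold (adjusted p from 0.0554 to 0.422). Their log2 fold changes were then 0.33 for Amotl2 to 1.00 for Txnip. With A5 and B6 alone as T5, Bmp4 and Adamts4 missed it (0.0715 and 0.141). Of the 16 genes of the last 2 paragraphs besides Dusp8 and Sesn2, each missed the threshold without T5 A (adjusted p from 0.109 for Fbxo32 to 0.789 for Amotl2) and without T5 B (0.0698 for Smad3 to 0.57 for Adamts4), and Dusp8 without T5 A (0.0598). Without T3 1 Fbxo32, Txnip, Bmp4, Bhlhe40, Phlda3 and Amotl2 missed it (0.0777 to 0.153). Without T3 2 Adamts20, Bmp4, Adamts1, Amotl2, Bhlhe40, Phlda3, Loxl2 and Adamts4 did (0.0558 to 0.137). Without T3 3 Amotl2, Loxl2, Adamts4 and Bmp4 did (0.0601 to 0.122). Without T3 4 Bmp4, Adm, Txnip, Loxl2, Bhlhe40, Phlda3, Adamts4 and Amotl2 did (0.0502 to 0.154). Without T5 A5 Loxl2, Bhlhe40, Txnip, Phlda3 and Amotl2 did (0.0527 to 0.24), without T5 A6 Bmp4 and Adamts4 (0.0753 and 0.115), without T5 B5 Adamts4 (0.0643), and without T5 B6 Phlda3 and Amotl2 (0.109 and 0.193). Without T0 2 it was Phlda3, Adamts4 and Amotl2 (0.0534 to 0.0661).

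No gene was called in the lists of protein synthesis, energy metabolism, matrix, redox and RNA decay, though in several nearly every member had the same sign. Of 28 oxidative phosphorylation genes 27 had a log2 fold change below 0 (median −0.54), and the most abundant, Atp5b, lay at 143 to 214 CPM in T3 and at 111 to 122 in T5 (adjusted p = 0.337). Of 34 ribosome biogenesis genes 33 lay below 0 (median −0.45), with the nucleolar protein gene Ncl at 1238 to 1852 and 1201 to 1334 CPM (adjusted p = 0.778). The median was −0.34 for 31 proteasome genes, −0.36 for 39 cytosolic ribosomal proteins, −0.30 for 22 translation factors and −0.40 for 22 genes of cholesterol and lipid synthesis. At an unadjusted p under 0.05 14 oxidative phosphorylation and 15 ribosome biogenesis genes were lower, and DESeq2 called 3 and 2 with its own filtering. With T3 and T5 only in the fit edgeR called 13 and 15 lower, Atp5b among them (adjusted p = 0.044), and without T0 3 13 and 15. The most abundant members were Psmd11 (adjusted p = 0.548), Rps3 (0.709, uncertain), the elongation factor gene Eef2 (0.524) and the sterol regulator gene Srebf2 (0.344).

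Closer to 0 were the medians of 21 glycolysis genes (−0.16), 20 aminoacyl-tRNA synthetases (−0.08), 26 autophagy and lysosome genes (−0.10) and 28 genes of the extracellular matrix (−0.13). Hexokinase 2 (Hk2) lay at 243 to 363 CPM in T3 and at 206 to 224 in T5 (adjusted p = 0.387), Eprs had an adjusted p of 0.864 and Hspg2, perlecan, of 0.689. The lists of 22 NRF2 genes (−0.27), 16 glucocorticoid response genes (−0.24) and 24 genes of mRNA decay (−0.32) held no call either. Thioredoxin reductase (Txnrd1) stood at 540.5, 646, 579 and 635 CPM in T3 and 539, 631, 692 and 551 in T5, with overlap (adjusted p = 0.997), against a T0 mean of 54.5. Errfi1 had an adjusted p of 0.581.

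**Figure D3:**
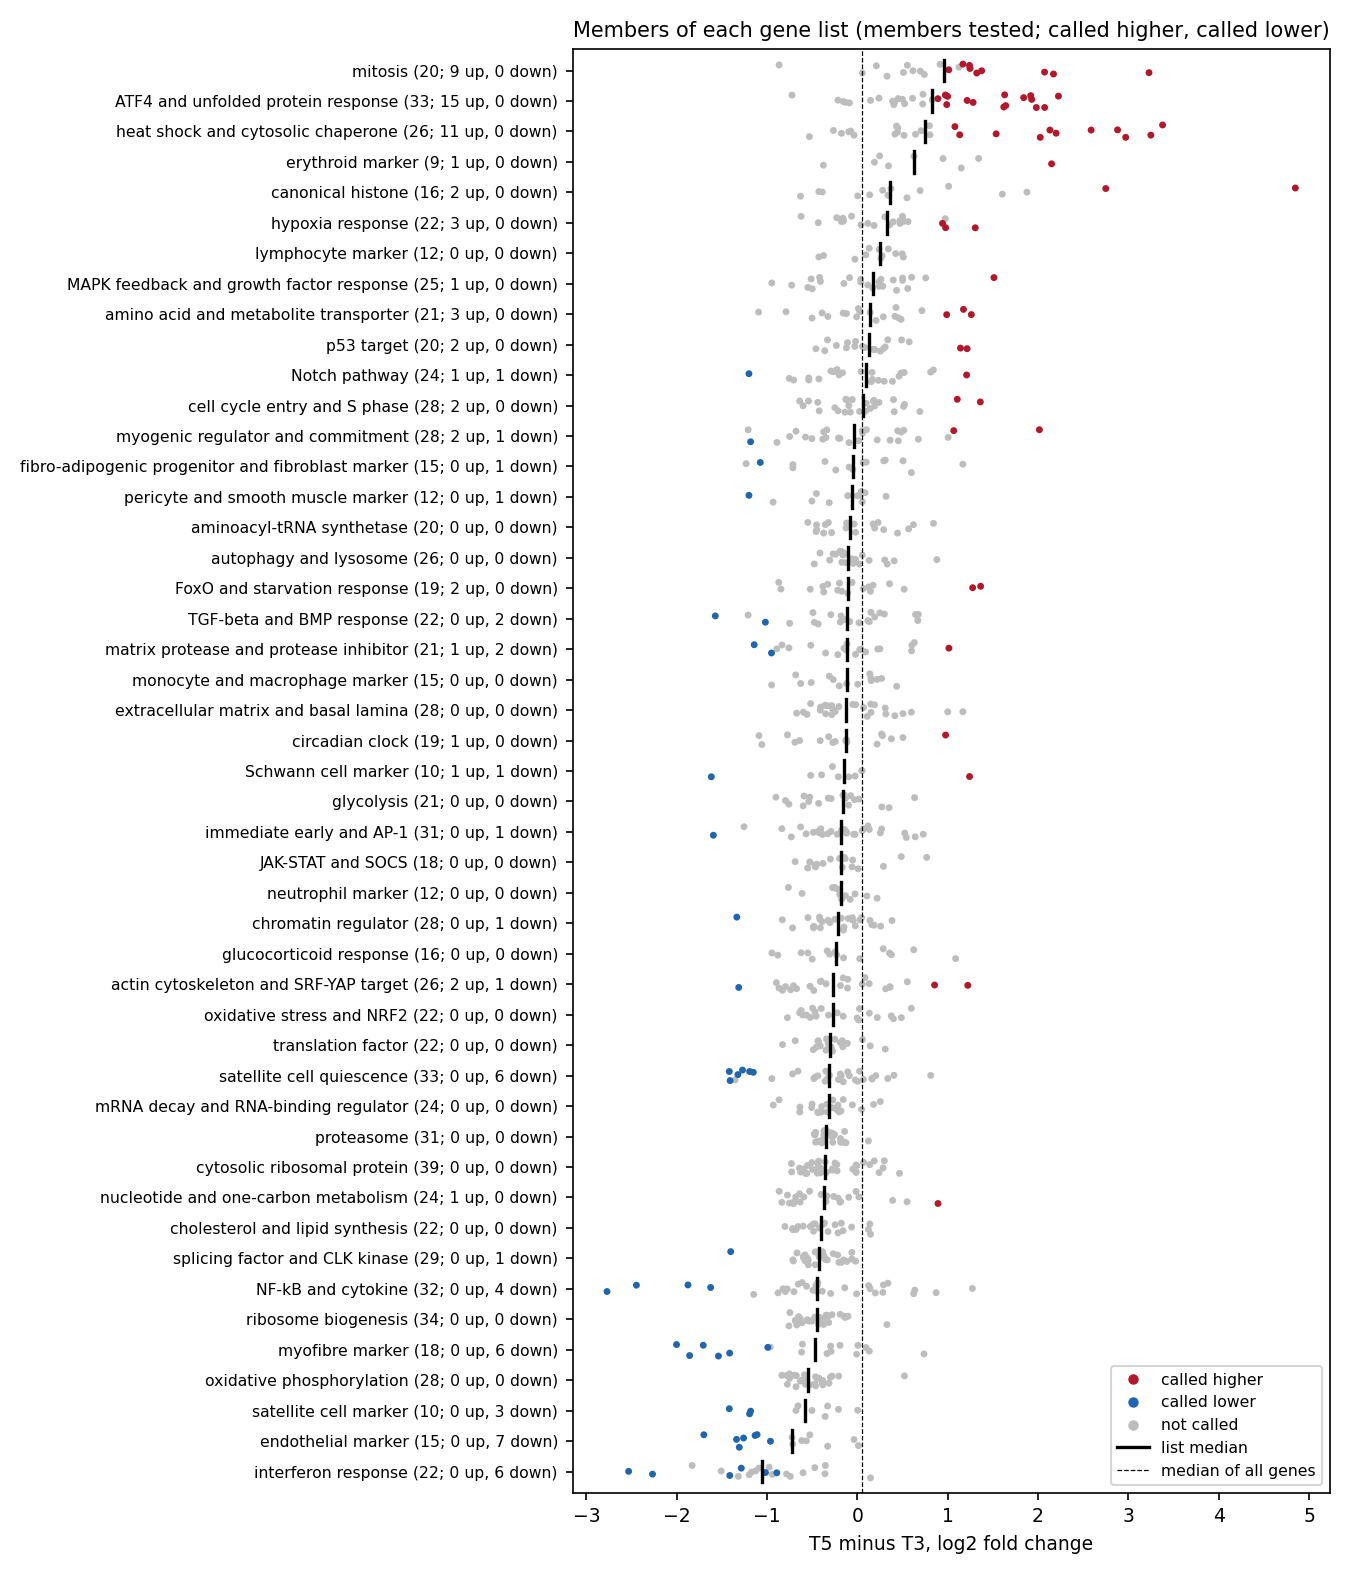
Log2 fold change of T5 minus T3 (x axis) for each tested member of 47 gene lists (rows, ordered by median), red where called higher, blue where called lower and grey where not called, with a bar at the list median and a dashed line at the median of all genes (0.05). Mitosis, ATF4 and heat shock genes stand at the top and interferon genes at the bottom.

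Markers of other cell types were present and some fell. In such bulk libraries fewer cells of a type and less RNA per cell cannot be told apart. Of 15 endothelial markers 7 were called lower, against 0.888% of all genes, and 0 higher (median −0.72). Their summed level was 577 to 665 CPM in T3 and 316 to 385 CPM in T5. Cldn5, of endothelial tight junctions, stood at 3.68, 2.75, 2.1 and 3.24 CPM in T3 and at 0.683, 1.2, 1.08 and 0.683 in T5 (fell by 1.70 ± 0.32, adjusted p = 0.00342). Flt1, a receptor of VEGF, stood at 81.5, 102, 92.9 and 97.8 CPM and then at 40.1, 37.1, 42.6 and 37.6 (fell by 1.26 ± 0.26, adjusted p = 0.00723). Egfl7 fell by 1.34 ± 0.26 (adjusted p = 0.00435, uncertain) and Ly6c1 by 1.31 ± 0.28 (adjusted p = 0.0121). Vwf and Emcn, which also define these cells, had log2 fold changes of −0.04 and 0.01 and were not called. No marker of the list was at 0 in any library, and Tek is also in the quiescence list.

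Of 18 myofibre markers 6 were called lower, against 0.888% of all genes, and 0 higher. Their summed level was 217 to 290.2 CPM in T3 and 190.3 to 208 in T5. Myh4, the myosin of fast fibres, stood at 11.9, 23.9, 14.2 and 13.2 CPM in T3 and at 3.79, 3.88, 2.85 and 5.72 in T5 (fell by 2.00 ± 0.30, adjusted p = 2.44e-04), and T3 2 was the highest. Tnnc2 and Tnni2, troponins of fast fibres, fell by 1.86 ± 0.32 (adjusted p = 0.00142, uncertain) and 1.71 ± 0.32 (adjusted p = 0.00342), and Acta1, skeletal actin, by 1.54 ± 0.33 (adjusted p = 0.00946, uncertain). The long transcripts Ttn and Neb had log2 fold changes of 0.01 and −0.01. T0 means were 0.697 CPM for Cldn5, 40.7 for Flt1 and 4.01 for Myh4, each under all T3 values. The part of other cells in the results on stem cell genes was not tested.

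Among the other markers fewer were called. Of 3 further lists, 15 macrophage, 12 neutrophil and 12 lymphocyte markers, none had a call, and the most abundant member was Cx3cr1 (adjusted p = 0.845, uncertain), Ltf (0.981) and Lck (0.648). Summed levels were 267 to 336, 6.41 to 26.8 and 11.3 to 14 CPM in T3 and 241 to 323, 10.2 to 15.3 and 12.1 to 16.7 CPM in T5. Of 10 Schwann cell markers 1 was called higher and 1 lower (median −0.15), with a summed level of 97.2 to 117 CPM in T3 and 95.2 to 104 in T5. Ngfr, the low-affinity receptor of nerve growth factor, rose by 1.24 ± 0.23 (adjusted p = 0.00252). Dpt fell by 1.07 ± 0.27 (adjusted p = 0.0323, uncertain) among 15 fibroblast markers. Notch3 was the call among 12 pericyte markers, whose summed level was 769.7 to 1003 CPM in T3 and lower in each T5 library, at 539 to 625. The median of the pericyte list was −0.05, with 5 members above 0, and Notch3 alone went from a mean of 213 to 93.9 CPM. Of 9 erythroid markers the globin gene Hba-a2 rose, at 0.181, 0.262, 0.0155 and 0.192 CPM in T3 and 1.55, 0.258, 0.364 and 0.717 in T5 (adjusted p = 0.0308), and A5 was the highest. At an unadjusted p under 0.05 4 of these markers were higher, and their summed level was 13.5 to 31.3 CPM in T3 and 23.6 to 59.8 in T5. Without A5 the adjusted p of Hba-a2 adjusted p was 0.326.

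Without T5 A the adjusted p was 0.082 to 0.684 over Cldn5, Tnni2, Acta1, Egfl7, Flt1, Dpt, Ly6c1 and Hba-a2, and without T5 B 0.0731 to 0.536 over these without Tnni2 but with Ngfr. The endothelial list then had 0 and 0 calls, and 2 with upper quartile scaling, while the myofibre list had 2 and 3. Dpt and Hba-a2 also missed the threshold without T3 1 (0.0683 and 0.0607) or T3 4 (0.109 and 0.0539), Hba-a2 without T3 3 (0.056) or T5 B6 (0.0643), and Dpt without T3 2 (0.0553), T5 A6 (0.0965) or T5 B5 (0.0549).

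The 4 T5 libraries were not alike, and the difference ran across the letters. The median of the heat shock list stood 1.24 above the T3 mean in A5 on the log2(CPM + 0.5) scale, 0.79 in B6, 0.45 in B5 and 0.34 in A6. That of the mitosis list stood at 0.91 in A5, 0.81 in B6, 0.63 in A6 and 0.58 in B5. The ATF4 list varied less, from 0.61 in A6 to 0.96 in A5, and the interferon list stood from −0.97 in A6 to −0.74 in A5. For the quiescence list A5 was at 0.04, within the T3 libraries, and A6, B5 and B6 at −0.44, −0.35 and −0.21. A5 had the highest total count of T5, and B6 the highest share of ribosomal RNA loci (20.3%). With A5 and B6 alone as T5, 795 genes were called higher and 320 lower, and with A6 and B5 alone 287 and 431.

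**Figure D4:**
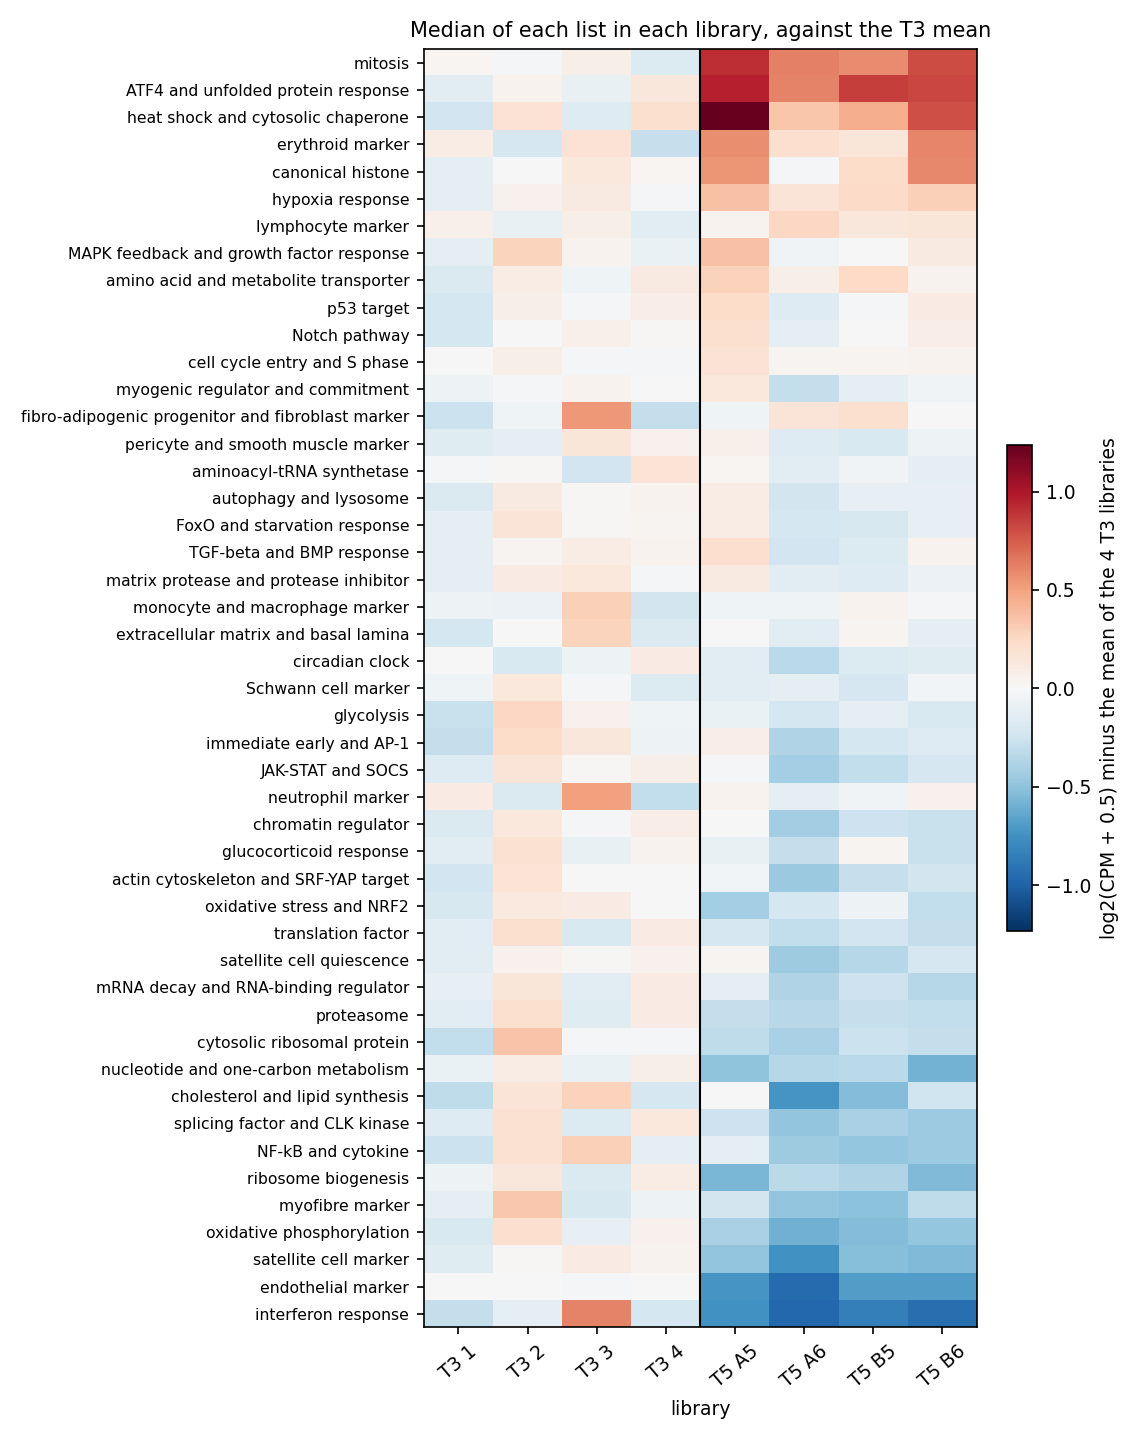
Median over the members of each gene list (rows) in each T3 and T5 library (columns), as log2(CPM + 0.5) minus the mean of the 4 T3 libraries, red above and blue below. Heat shock genes are darkest in A5 (1.24) and interferon genes in A6 (−0.97), and T3 3 stands apart from the other T3 libraries for interferon genes (0.61).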

How the data were processed

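Gene expression was measured by RNA-seq on 65-bp single-end reads from 11 libraries of fixed muscle stem cells, prepared with a kit for stranded total RNA. The authors deposited 1 table of read counts per gene, not normalised, with 48709 genes, and all its columns of values were used. Per the submitters' processing notes the build was GRCm38, and the tools included DESeq2 1.12.3, R 3.3.1, featureCounts 1.4.6-p3 and STAR 2.5.0a, and the counting options are not given in the sources used here. Column names matched groups and letters, so no replicate was paired with another group's.

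The counts of T5 libraries of 1 letter were summed, genes were filtered by edgeR's filterByExpr, counts were scaled by TMM, and T5 was tested against T3 with edgeR's quasi-likelihood F test (edgeR 4.0.16, limma 3.58.1, R 4.3.3), with T0 in the fit and Benjamini-Hochberg adjustment over 31999 genes. Levels are CPM on TMM-scaled library sizes. Of the gene identifiers 48349 matched the GENCODE annotation by which overlapping genes were found, and 360 did not. The alternatives were DESeq2 1.42.0, other scalings, filters and groupings of T5, and leaving out each library. Those that left out a single T5 library before the sum, or kept A5 with B6 or A6 with B5 alone, were chosen after seeing the data.

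On simulated data of the same design with 31291 genes, 36% of genes changed 2-fold and 96% of those changed 4-fold were recovered, and 10.8% of calls were false. So a missing call carries little weight for changes near 2-fold. Named genes were the 10 highest and 10 lowest called genes (level of 4 or more in log2 CPM, averaged over T3 and T5) with no overlap of groups and no overlapping gene, up to 4 called members of each list by p and up to 2 against its direction, the most abundant member of a list with no call, and Pax7, Myod1 and Myf5. A few genes that the rule gives are not reported here. The members and lists were chosen with earlier results of these data known.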

Additional observations from a re-analysis of the deposited data

Results flagged for a closer look

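In 8 of 206 groups of 4 libraries examined, 1 library stood apart from its group by more than Dixon's 95% critical value, where chance gives about 1 in 20. Among T5 libraries these were Rprl3 in B6 at 2.17 CPM (next 0.221), Cd200 in B5 at 81.7 (next 61.0), Pdia4 in B5 at 99.2 (next 72.8), Lmna in B5 at 366 (next 314), Ltf in B5 at 3.28 (next 2.79), and Cxcr4 in A6 at 20.5 (next 25.9). Among T3 libraries they were Gxylt2 in T3 2 at 191 CPM (next 252) and Ifit1 in T3 3 at 18.5 (next 6.82). B5 was the library apart in 4 of the 6 T5 cases.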

How the results depend on the processing

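The number of genes called higher and lower, 411 and 284 as reported, moved with several choices. Higher calls were 268 with DESeq2's size factors, 695 with no filter on low counts, 1348 with T3 and T5 only in the fit, 923 with the 4 T5 libraries singly, 150 without genes that overlap another, 887 among genes at 10 times the background or more, and 795 with A5 and B6 alone as T5. Lower calls were 456 with upper quartile scaling, and 518, 1646, 1199, 83 and 582 under the same settings from no filter to background, 431 with A6 and B5 alone, and 670 and 641 by DESeq2 with its filtering on and off. Leaving out 1 library of T0 or T3 gave 271 to 922 higher and 186 to 1581 lower, with the lowest without T3 4 and the highest without T0 3 (without T0 1 it was 796 and 643). Leaving out 1 T5 library before the sum gave 304 to 589 and 261 to 378. Leaving out a letter of T5, which is 2 libraries, gave 165 and 59 without T5 A and 143 and 41 without T5 B. Of calls, 59.1% were higher as reported, 45% with T3 and T5 only, 43.5% with T5 singly and 33.8% by DESeq2. With T3 and T5 only, 410 of the 411 and 281 of the 284 were called again. The median of all genes was −0.05 with DESeq2's size factors and 0.10 with upper quartile scaling. Of 82 named calls, 46 were lost without T5 A and 47 without T5 B, 16 with DESeq2's size factors and 11 with upper quartile scaling, and no named call changed direction under any alternative run. No paired analysis was possible because the T3 columns carry numbers alone and the T5 columns letters and numbers that nothing ties to them. With 2 T5 sums changes near 2-fold were often not recovered on simulated data, and the effect of depth was not tested.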

Other observations

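Genes outside the lists gave some of the widest differences and were chosen after their values were seen. Several copies related to other genes were near 0 in T5: Gm8730 stood at 8.56, 8.32, 11.2 and 5.12 CPM in T3 and at 0.171, 0.0785, 0.108 and 0.217 in T5, Rpsa-ps10 at 15.5, 32.2, 24.8 and 22.6 and then 0.724, 0.751, 0.715 and 1.05, so that reads shared with near-identical genes make both uncertain, and whether such loci were counted alike in all libraries is not given in the sources used here. Mlycd, malonyl-CoA decarboxylase, stood at 68.3, 3.92, 56 and 90.2 CPM in T3, with T3 2 far below the others, and at 3.05, 3.77, 3.79 and 4.75 in T5. H2-Q10, of the class I histocompatibility genes, stood at 0.254, 0.293, 0.356 and 0.384 CPM and then at 2.76, 2.62, 2.31 and 3.13 and shares sequence with its neighbours. Macrod1 stood at 48.1, 113, 45.7 and 79.5 CPM and then at 858, 935, 1162 and 957, and overlaps Flrt1, which was also called.

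Summing by letter hid differences between T5 libraries in some calls. Olfr1250 stood at 14.9, 0.269, 0.189 and 0.15 CPM in T5, Serpini2 at 26, 1.22, 1.3 and 1.22, Tram1l1 at 0.171, 12.9, 0.216 and 0.467 and Nppa at 0.342, 0.617, 0.324 and 23.9, so in each 1 library held most of the level. C1d stood at 33.6, 3.26, 2.85 and 59.9 CPM, high in A5 and B6 alone.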
